A study of Mus musculus with 2 samples.

Results

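The genes described here were 42 genes of the extracellular matrix, comprising 33 collagen chain genes and 9 genes for other matrix proteins of cartilage and mesenchyme. They were chosen by name from the 21779 protein-coding genes of the mouse genome that were counted. No measured value entered the choice, but earlier results of these data were known when it was made. For each gene, DLX2 peaks were counted inside the gene and in the 50 kb on either side of it, which together are called its window. The 42 genes comprised 11 fibril-forming collagens, 8 fibril-associated collagens, 11 network, beaded or anchoring collagens, 3 membrane collagens, 5 cartilage proteoglycans or adaptors, and 4 matrix genes of mesenchyme.

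Collagens are proteins of the extracellular matrix in which chains wind into a triple helix. Fibril-forming collagens give tissues their tensile strength, fibril-associated collagens decorate those fibrils, and other families build basement membranes, beaded filaments and pericellular networks. Cartilage matrix combines type II, IX and XI collagen with the proteoglycan aggrecan, and facial mesenchyme lays down type I and III collagen, fibronectin, fibrillins and versican before cartilage and bone form. DLX2 is a homeodomain transcription factor of the facial prominences, and homeodomains of its class bind DNA around a TAATT core.

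The study used CUT&Tag, in which an antibody directs a transposase to tag the DNA around a chromatin protein, to look for sites occupied by DLX2. An anti-DLX2 antibody was applied to maxillary process cells of wildtype C57BL/6 embryos at E12.5, in 2 libraries that make up 1 group. No control antibody, input library, other stage or other genotype was analysed here, so no groups were compared and no test between groups was possible. Nothing in the labels says whether the libraries, called replicate 1 and replicate 2, came from separate embryos or litters. Peak lists hold no expression values, so the tissue could not be checked against marker genes, and whether a matrix gene was expressed in these cells is not known from them.

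Replicate 1 held 28061 peaks and replicate 2 held 62093, and 10921 regions were covered by a peak in both, which are called shared regions. These lists, used as deposited, hold other numbers of peaks than the text of the study gives, so the shared regions are not the peak set described there. Each peak carries a fold enrichment, which relates the fragments at its summit to the background around it within that library. Regions were ranked by their lower fold, the smaller of the folds of the replicate peaks that met there. The files give no read totals, and the fragments behind a peak were recovered from its fold and p value: the median was 6 in replicate 1 and 9 in replicate 2. Peaks therefore rested on few fragments, and a gene without a listed peak is one where nothing passed the peak caller's threshold, not one shown to be unoccupied.

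Of the 42 matrix genes, 30 had at least 1 shared region in the window, which is 71.4% with a 95% Wilson interval of 56.4 to 82.8. Over all protein-coding genes the share was 44.7%. Many collagen genes are long, and 18 of the 42 fell in the longest of 10 equal classes of coding genes by length. When every matrix gene was set beside the coding genes of its own length class, the average share was 56.7%, which corresponds to 23.8 genes. The matrix genes held 1.36 ± 1.25 shared regions (SD over 42 genes), beside a mean of 1.26 in their length classes and 0.795 over all coding genes. Part of the distance from all coding genes thus went with gene length, and the interval around 71.4% reached down to just under the length-class average. The intervals cover counting error only, and genes that neighbor each other are not independent.

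The difference from the length classes was larger in number among the shorter genes. In the longest class, 13 of 18 matrix genes had a shared region, beside 68.0% of all coding genes of that class. Among the shorter genes the number was 17 of 24, beside 42.1% of the other coding genes and 48.3% when each of the 24 was set beside its own length class. No test was made of this difference, because the genes were listed with earlier results of these data known.

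**Figure D1:**
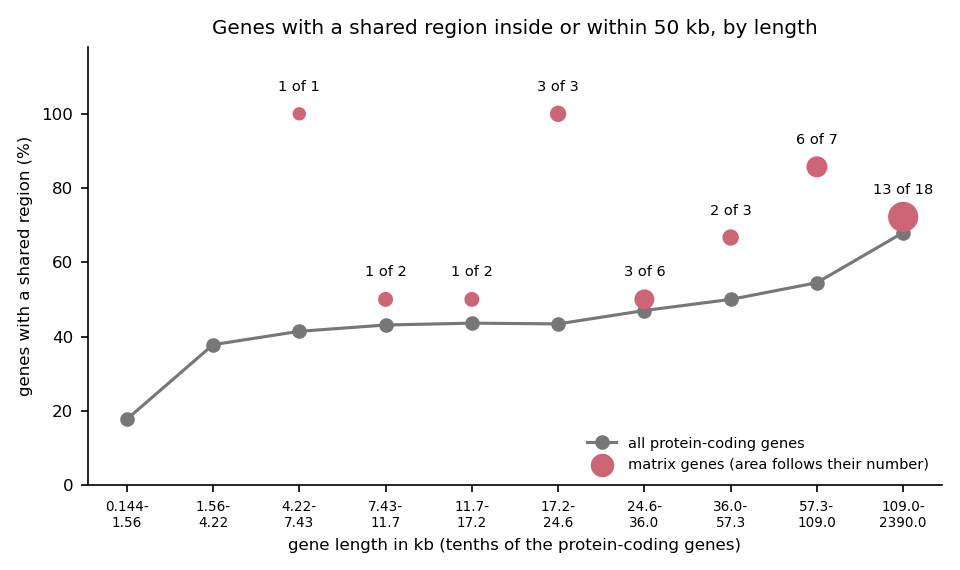
Percentage of genes with at least 1 shared region in the window (y axis) by gene length in kb, in 10 equal classes of the protein-coding genes (x axis). Gray points and line are all protein-coding genes, red points are the matrix genes with their counts printed above. The gray line rises to 68.0% in the longest class, where 13 of 18 matrix genes had a shared region.

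The same count in each replicate alone separated the genes little. At least 1 replicate 1 peak was found for 36 of 42 matrix genes (72.4% of all coding genes, and 34.7 genes by length class). At least 1 replicate 2 peak was found for all 42 (86.2% of all coding genes, and 39.1 genes by length class). The mean number of peaks per matrix gene was 3.36 in replicate 1 and 8.19 in replicate 2, beside length-class means of 3.33 and 7.44. In the windows, 136 replicate 1 peaks and 334 replicate 2 peaks were counted once each, a ratio of 2.46, beside 2.21 for the whole lists. Replicate 2 held more peaks than replicate 1 at 37 of the 42 genes, the numbers were equal at 2 (Col5a2 and Col8a1), and replicate 1 held more at 3 (Col9a1, Col11a1 and Hapln1).

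The replicates met each other at these genes about as often as elsewhere. In the matrix gene windows, 39.0% of replicate 1 peaks were met by a replicate 2 peak (interval 31.2 to 47.4), beside 38.9% of all replicate 1 peaks. The share of replicate 2 peaks that were met was 15.6% (interval 12.1 to 19.8), beside 17.2% of all replicate 2 peaks. More than 3 in 5 replicate 1 peaks near matrix genes thus had no counterpart.

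The 53 shared regions in the windows were counted 57 times, because 4 regions fell in the windows of neighboring pairs. These pairs were Col9a1 and Col19a1 with 2 regions in common, Col4a1 and Col4a2 with 1, and Col6a1 and Col6a2 with 1. By gene, 12 had no shared region, 13 had 1, 11 had 2, 3 had 3, 2 had 4 and 1 had 5. At least 3 shared regions were found for 6 of the 42, beside 7.68% of all coding genes, and these were Col23a1, Col24a1, Comp, Col5a1, Col6a2 and Col6a3. That share is not matched for length. Coding genes of the longest class, where 18 of the 42 fell, held a mean of 1.85 shared regions beside 0.795 over all. Col23a1, Col24a1 and Col5a1 are of that class.

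**Figure D2:**
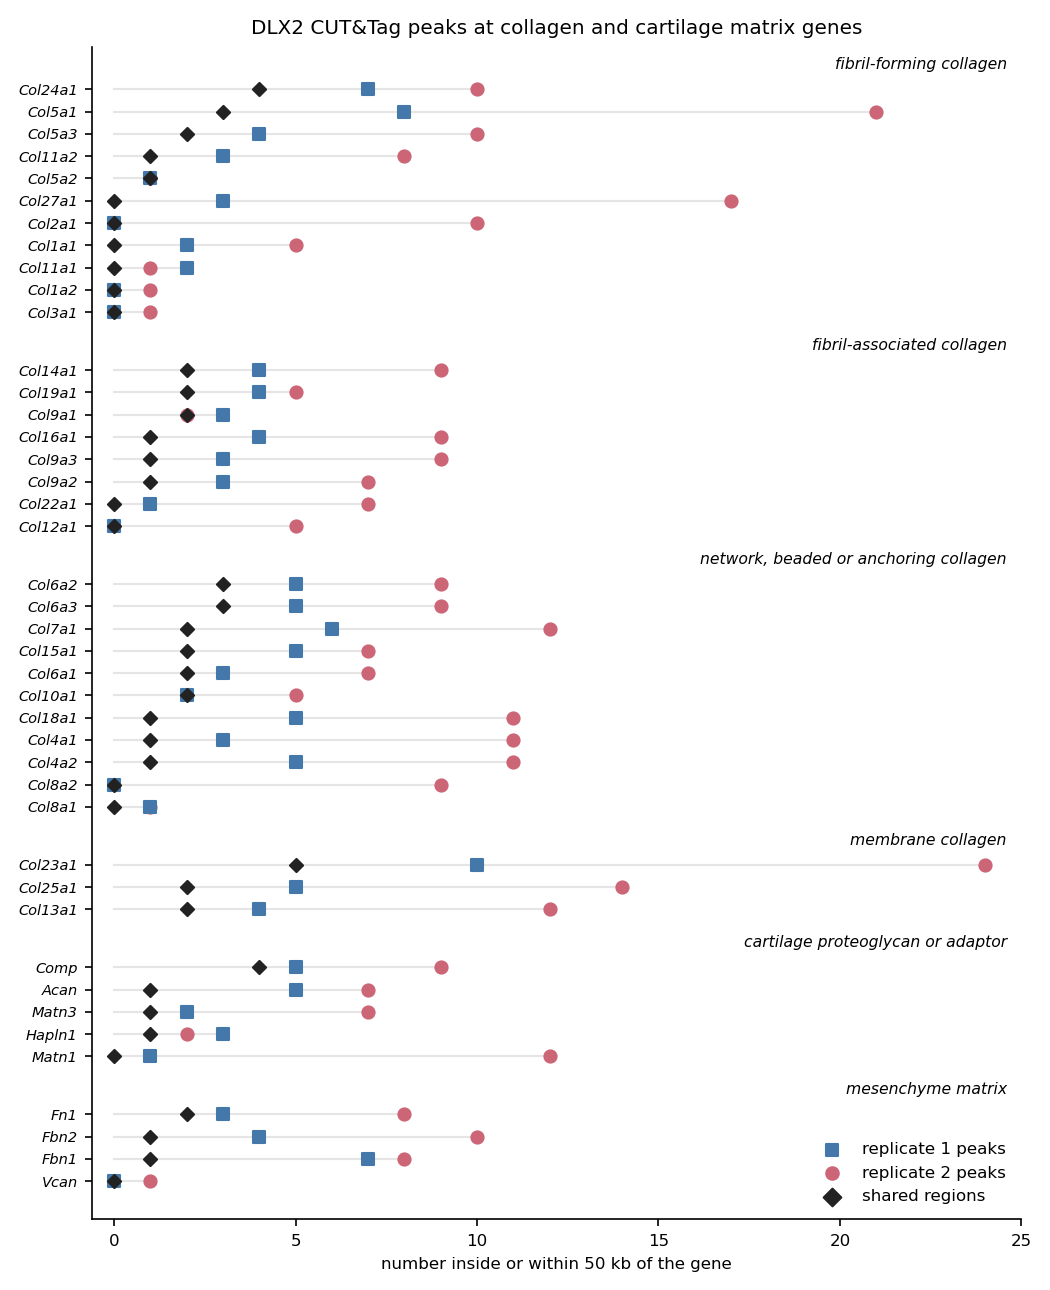
Number of peaks or shared regions (x axis) inside or within 50 kb of each of the 42 matrix genes (rows, grouped by role). Blue squares are replicate 1 peaks, red circles replicate 2 peaks and black diamonds shared regions. Shared regions run from 0 to 5 per gene, and Col23a1, at 24 replicate 2 peaks, holds the most.

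Shared regions were found inside the matrix genes and in their flanks. Of the 53, 25 were inside the gene (47.2%, interval 34.4 to 60.3) and 28 in the flanks, and 0 lay within 2 kb of either end, which allows a share of up to 5.66%. Stretches that close to an end made up 3.92% of the window bases, and 0 of 42 matrix genes beside 3.49% of all coding genes had a shared region there, so a count of 0 is near the background. Gene bodies made up 54.5% of the 8.48 Mb of windows. The density was 5.41 shared regions per Mb inside the genes and 7.26 in the flanks, whereas over all coding genes it was 4.93 and 4.91. The flank densities are not like for like. Flanks of all coding genes leave out every coding gene body, whereas those of the matrix genes keep the bodies of neighboring genes. A shared region inside the gene was found for 15 of 42 matrix genes, beside 14.6% of all coding genes and 14 genes by length class. In the longest class the number was 10 of 18, beside 55.0% of that class. The bodies of matrix genes therefore held about as many shared regions as genes of their length, and the flanks held the rest.

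Of the 28 flanking regions, 8 lay inside another protein-coding gene, 8 in a non-coding gene only and 12 in no annotated gene. A flank that reaches into a neighboring gene cannot be told apart from that gene by distance alone, and without the 8 regions of the first kind 26 matrix genes would still have had a shared region.

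Transcription starts were looked at with the RefSeq promoters of GRCm38.p6, which matched 32 of the 42 genes with 35 starts. The genes without an entry were Col5a2, Fbn2, Col9a3, Col2a1, Comp, Col1a1, Col12a1, Fn1, Col14a1 and Col22a1. None of the 35 promoters (250 bases before to 50 bases after the start) was overlapped by a peak of either replicate, which allows up to 8.57%. Over 32851 promoters in all, 0.791% were overlapped in replicate 1 and 2.69% in replicate 2. Within 2 kb of a start, 3 of the 35 had a replicate 1 peak (6.19% of all starts), 4 had a replicate 2 peak (15.4%) and 0 had a shared region (2.09%).

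The peaks near starts belonged to different genes in each replicate. In replicate 1 they were at Col5a1, 1902 bp before the start with a fold of 5.4, at Col27a1, 740 bp before it with a fold of 4.18, and at Col24a1, 1660 bp after it with a fold of 3.58. In replicate 2 a single peak with a fold of 5.84 lay 472 and 698 bp before the 2 listed starts of Col6a2. The other replicate 2 peaks were at Col9a2, 1003 bp before the start with a fold of 4.38, and at Col11a2, 1493 bp before it with a fold of 3.09.

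The promoter sequences that hold TAATTA are shown as places next to a matrix gene start where letters known for this class of factor occur. Those that hold only the shorter TAATT are not shown. The 250 bases before each start were searched on both strands for TAATTA, a palindrome, and for TAATT, which every TAATTA contains. TAATTA was found before 2 of the 35 starts (4.84% of all promoters), at Col10a1 and Col11a2, and TAATT before 4 (25%), adding Hapln1 and Vcan. Sequences are from RefSeq, build GRCm38.p6, plus strand and 5′ to 3′, with TAATTA in capitals. For Col10a1 all 250 bases before the start are given (chr10:34389731-34389980). For Col11a2, where the stretch lies inside the annotated extent of the gene, 30 bases around each of the 2 cores are given (chr17:34039011-34039040 and chr17:34039038-34039067).
Col10a1: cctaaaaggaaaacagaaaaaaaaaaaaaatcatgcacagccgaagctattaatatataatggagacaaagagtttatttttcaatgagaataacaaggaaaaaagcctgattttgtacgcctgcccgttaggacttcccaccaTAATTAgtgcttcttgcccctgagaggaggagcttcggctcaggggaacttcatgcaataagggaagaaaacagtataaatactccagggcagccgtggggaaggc
Col11a2, first core: aggactgctctgTAATTAcatgtggcagga
Col11a2, second core: ggacgagggaggTAATTAtggagagctgat
The core of Col10a1 begins 106 bases before the start, and the nearest peaks to that start were 38.2 kb away in replicate 1 and 15.5 kb away in replicate 2. The cores of Col11a2 begin 115 and 88 bases before the start, with the nearest peaks 31.9 kb away in replicate 1 and 1.45 kb away in replicate 2. Neither replicate thus listed a peak over these letters. Among other cores, TGTGGT of RUNX factors was found before 4 of the 35 starts (Matn1, Col18a1, Hapln1 and Col8a1, 14% of all promoters), ACAAAG of SOX factors before 2 (Col3a1 and Col10a1, 16.5%) and the E-box CACGTG before 0 (6.02%). A match is a stretch of letters, not a measured site.

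In cartilage matrix genes, shared regions were absent from Col2a1, Col11a1, Col27a1 and Matn1 and present at Acan, Hapln1, Comp, Matn3, Col9a1, Col9a2, Col9a3, Col10a1 and Col11a2. In the length classes of these genes, from 41.4% to 68.0% of coding genes had a shared region. Of the 5 cartilage proteoglycans or adaptors, 4 had one, beside 2.39 genes by length class, which was not tested. Col2a1 encodes type II collagen, the main fibril of cartilage. Its window held 0 peaks in replicate 1 and 10 in replicate 2, with folds from 3.10 to 4.71 and 6 to 12 fragments each. The 10 peaks were spread on both sides of the gene, 2 of them inside it, and the nearest shared region was 110.5 kb away. Matn1, the gene of the cartilage adaptor matrilin 1, had a similar split, with 1 peak in replicate 1 at a fold of 5.22 and 12 in replicate 2 at folds from 2.87 to 5.05. The closest of the 12 to the replicate 1 peak did not touch it, and the nearest shared region lay just outside the window, at 53.2 kb.

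Acan encodes aggrecan, the large proteoglycan that holds water in cartilage. It had 5 peaks in replicate 1 and 7 in replicate 2, and 1 pair met, 32.0 kb upstream of the start (chr7:79021197-79021290). The fold there was 4.33 in replicate 1, from 5 fragments, and 5.71 in replicate 2, from 11. Inside Acan replicate 2 listed 4 peaks and replicate 1 none, so only the upstream region stood in both. Hapln1 encodes the link protein that fixes aggrecan to hyaluronan, and its shared region lay inside the gene, 47.6 kb from the start (chr13:89588095-89588325). The folds were 7.21 and 5.71, from 9 and 11 fragments, which placed it among the 10 regions with the highest lower fold. The same region was the nearest to Vcan, the gene of versican, at 67.0 kb, outside the window.

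Comp, the gene of cartilage oligomeric matrix protein, had 4 shared regions, although its gene is only 8.52 kb long and no peak of either replicate lay inside it. A region on the lower-coordinate side lay inside Cers1 and Gdf1, 42.2 kb away, with folds of 4.69 and 3.89. The other 3 lay inside Crtc1, between 41.4 and 48.6 kb away, with folds from 4.32 to 5.51 in replicate 1 and from 3.42 to 4.58 in replicate 2. All 4 of them were thus in other coding genes, near the edge of the window, and a 10 kb flank would leave Comp with none. Matn3, a matrilin of growth cartilage, had 1 shared region 31.4 kb away at folds of 4.05 and 5.37.

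Col11a2, a chain of the type XI collagen that nucleates cartilage fibrils, held the region with the second highest lower fold. It lay 40.8 kb beyond the gene, in no annotated gene (chr17:34107451-34107852), with a fold of 8.79 from 13 fragments in replicate 1 and 6.5 from 16 in replicate 2. The summits were 131 bp apart. The other 2 replicate 1 peaks and 7 replicate 2 peaks in its window did not meet, though a pair lay close together, at 49.5 and 49.8 kb from the lower end of the gene. By contrast, Col11a1, which encodes a partner chain of the same collagen, had 2 and 1 peaks that did not meet, and its nearest shared region was 1327 kb away.

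Type IX collagen sits on the surface of cartilage fibrils, and all 3 of its chain genes had a shared region. In their length classes the share was 54.5% for Col9a1, 43.6% for Col9a2 and 43.4% for Col9a3. Col9a1 had 3 peaks in replicate 1 and 2 in replicate 2, and both of its shared regions lay inside the neighboring Col19a1 with which they are described. The region of Col9a3 lay 39.5 kb away (chr2:180558312-180558619), with folds of 5.67 and 5.97. At Col9a2 the replicates had only 4 bp in common, inside Zmpste24, with folds of 4.33 and 4.28 and summits 186 bp apart, so that call rested on the edges of the peaks.

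Col10a1 encodes type X collagen, which marks hypertrophic cartilage. It had 2 peaks in replicate 1 and 5 in replicate 2, and both replicate 1 peaks were met, neither of them inside the gene. The higher region lay 47.9 kb beyond the gene (chr10:34444993-34445175), with folds of 8.65 and 5.24. The other lay 38.4 kb on the opposite side, inside Nt5dc1, with folds of 6.88 and 3.59 and only 44 bp in common between the peaks.

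**Figure D3:**
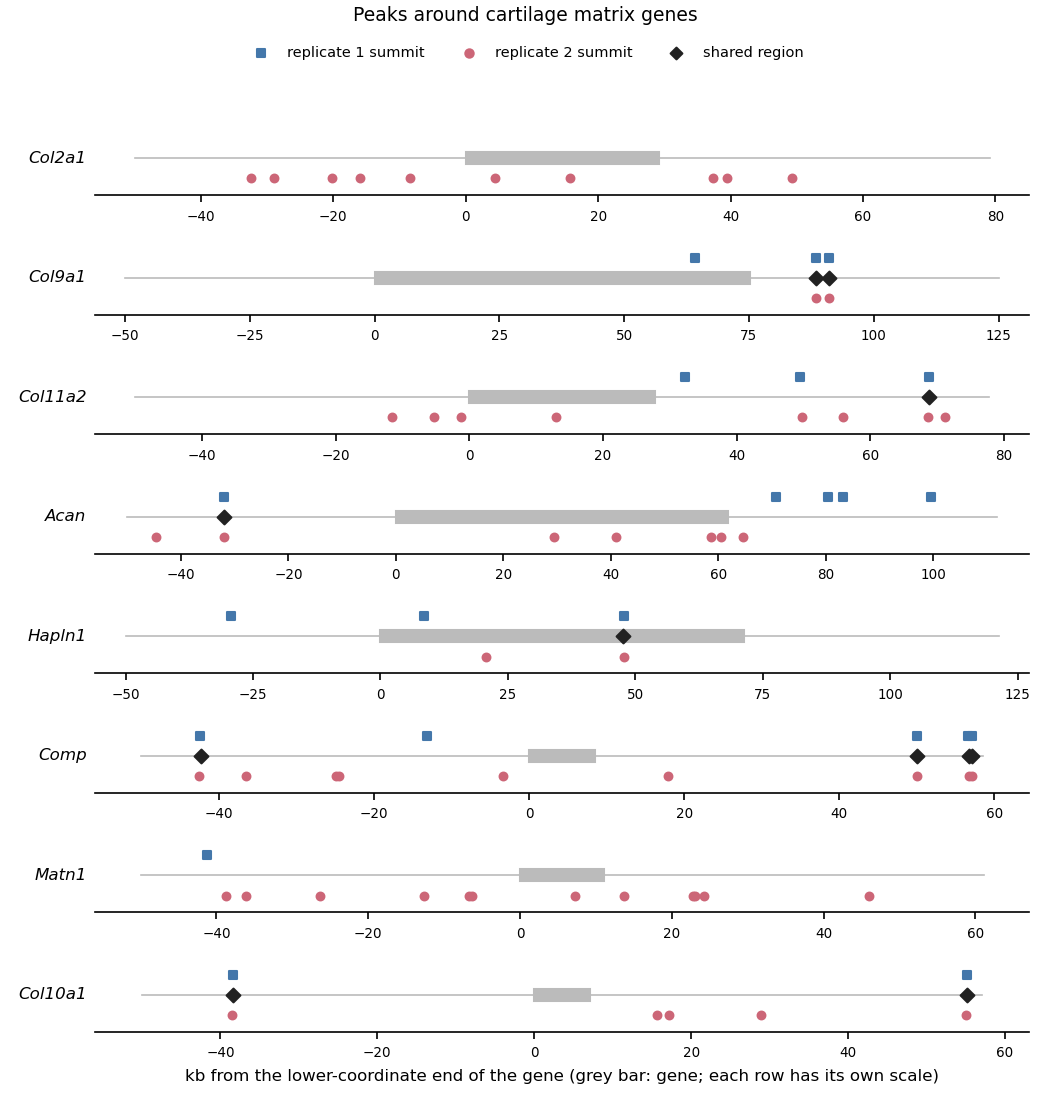
Peaks around 8 cartilage matrix genes, 1 row per gene, in kb from the lower-coordinate end of the gene (x axis, each row with its own scale). The gray bar is the gene and the thin line its window, blue squares above it are replicate 1 summits, red circles below it replicate 2 summits, and black diamonds on it shared regions. Col2a1 shows 10 replicate 2 summits and no replicate 1 summit, and the diamonds of Comp sit near the edges of its window.

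Among the fibril-forming collagens as a group, 5 of 11 had a shared region, beside 6.25 genes by length class. The genes of the main fibrils of mesenchyme and bone had none. In their length classes, 43.6% (Col1a1), 47.0% (Col1a2) and 50% (Col3a1) of coding genes had one. A gene of these lengths without a shared region was thus common. Col1a1, a chain of type I collagen, had 2 peaks in replicate 1, at folds of 4.15 and 3.79, and 5 in replicate 2, at folds from 3.06 to 3.90. The closest approach was inside the gene, with summits 13.1 and 14.5 kb from its lower end, and the nearest shared region was 99.3 kb away. Col1a2, the other type I chain, had 0 and 1 peaks, the single one inside the gene with a fold of 3.33 from 6 fragments. Col3a1, the type III collagen gene, also had 0 and 1 peaks, the latter with a fold of 4.28 from 8 fragments at 35.8 kb.

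The fibril-forming collagens that did have shared regions were Col5a1, Col5a2, Col5a3, Col11a2 and Col24a1. Type V collagen controls the width of type I fibrils, and each of its chain genes had at least 1. Of coding genes in the same length class, 68.0% (Col5a1 and Col5a2) and 50% (Col5a3) had one, and the difference was not tested. Col5a1 had 8 peaks in replicate 1 and 21 in replicate 2, and its 3 shared regions were all inside the gene, at 23.3, 49.5 and 74.9 kb from the start. The one with the highest lower fold was the farthest from the start (chr2:27961263-27961468), at 4.10 and 5.80. The nearest had 5.09 and 4.08, and the middle one had 4.12 and 3.67 with summits 322 bp apart. Col5a3 had 4 and 10 peaks and 2 shared regions, both upstream, the stronger 22.7 kb before the start (chr9:20837576-20837887) at folds of 6.31 and 7.82. Col5a2 had a single peak in each replicate, and these met 35.8 kb away with folds of 5.61 and 4.28, which was also the shared region nearest to Col3a1, at 189 kb.

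Col24a1, a fibril-forming collagen of developing bone, had 4 shared regions from 7 and 10 peaks, including the one with the highest lower fold of all the windows. A pair of regions less than 1 kb apart lay upstream of the gene in no other annotated gene. The first (chr3:145276110-145276251) was 16.3 kb before the start, with a fold of 7.60 from 11 fragments in replicate 1 and 7.01 from 14 in replicate 2. The second (chr3:145275264-145275437) was 17.1 kb before it, with folds of 10 and 6.44 from 15 and 13 fragments. The remaining pair lay deep inside the gene, 169 and 204 kb from the start, with folds of 7.77 and 4.76 and of 4.91 and 6.19. In contrast Col27a1, another collagen of cartilage and bone, had 3 and 17 peaks of which none met.

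Of the 8 fibril-associated collagens, 6 had a shared region, beside 4.64 genes by length class. Col19a1, a collagen of muscle and basement membrane zones, had 4 and 5 peaks and 2 shared regions near the end of its gene, 319 and 321 kb from the start, which lie 15.8 and 13.2 kb from Col9a1. In the stronger one (chr1:24268504-24268690) the fold was 5.77 from 7 fragments in replicate 1 and 7.14 from 14 in replicate 2. The other had 4.33 from 5 and again 7.14 from 14. Identical folds recur in these lists because many peaks rested on a whole number of fragments over the same lowest background, 0.387 fragments in replicate 1 and 1.1 in replicate 2. Col14a1, which associates with type I fibrils, had 4 and 9 peaks and 2 shared regions inside the gene, the stronger (chr15:55498346-55498486) at folds of 4.93 and 4.14 and the other at 3.60 and 5.24. Col16a1 had 1 shared region 4.93 kb before the start at folds of 4.34 and 3.86, while Col12a1 with 0 and 5 peaks and Col22a1 with 1 and 7 had none.

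Of the 11 network, beaded or anchoring collagens, 9 had a shared region, beside 6.07 genes by length class. Type IV collagen forms the mesh of basement membranes, and among its genes Col4a1 and Col4a2 lie head to head. The region they share lies inside Col4a2, 49.0 kb from its start (chr8:11361629-11361791), and 48.7 kb outside Col4a1, just within that gene's window. Its fold was 6.31 from 10 fragments in replicate 1 and 10.7 from 32 in replicate 2, the largest replicate 2 fold and fragment number of any peak in the windows, with summits 9 bp apart. The other peaks of Col4a2, 4 in replicate 1 and 10 in replicate 2, did not meet.

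Type VI collagen forms beaded filaments around cells, and the 3 of its chain genes chosen here each had shared regions. Among coding genes of the same length class, 43.4% (Col6a1), 47.0% (Col6a2) and 54.5% (Col6a3) had one. Of the type VI chain genes counted with the other collagens, Col6a6 had 3 shared regions, Col6a4 had 2 and Col6a5 had 0. Col6a2 had 5 and 9 peaks and 3 shared regions, the strongest inside the gene 5.81 kb from a start (chr10:76617518-76617720) at folds of 5.02 and 5.87. Another, 8.20 kb from the gene, lay inside Ftcd at 4.96 and 5.0. The third, between Col6a2 and Col6a1, had folds of 4.33 and 3.73. Col6a3 had 5 and 9 peaks and 3 shared regions, the one with the highest lower fold 4.76 kb before the start (chr1:90848696-90848837) at 4.62 and 3.85. The region inside Col6a3 was weaker in both replicates, at 3.60 and 3.54. Col6a1 had 3 and 7 peaks and, besides the one in common with Col6a2, a region 27.0 kb away at 4.52 and 4.28.

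Col15a1 and Col18a1 encode related collagens of basement membranes. Col15a1 had 5 and 7 peaks, and its 2 shared regions, both inside the gene and near its end, came from a single replicate 2 peak with a fold of 6.77 that met 2 replicate 1 peaks with folds of 4.23 and 4.12. Its count of 2 was thus 1 place (chr4:47305932-47305964 and the stretch just beside it). Col18a1 had 5 and 11 peaks and 1 shared region inside the gene (chr10:77085000-77085140), where the replicates differed widely, at 7.31 and 3.48. Col7a1, of the anchoring fibrils of skin, had 6 and 12 peaks and 2 shared regions upstream, 14 and 25.6 kb before the start. The short-chain collagens Col8a1, with 1 and 1 peaks, and Col8a2, with 0 and 9, had none.

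The 3 membrane collagens chosen here each had shared regions, beside 2.04 genes by length class. They are long genes, from 141 to 419.5 kb, and are anchored in the cell membrane with a collagenous ectodomain. Col17a1, which was counted with the other collagens and not in this group, had 3 and 7 peaks and 0 shared regions. Col23a1 held the most of any matrix gene, with 10 and 24 peaks and 5 shared regions, 4 of them inside the gene, beside a mean of 1.85 in the longest class of coding genes. Its folds were modest, from 4.03 to 5.15 in replicate 1 and 3.29 to 6.29 in replicate 2, and the region with the highest lower fold (chr11:51340415-51340516) had 4.80 and 4.56. None of its regions was among the 10 with the highest lower fold, and its rank by number held under some stricter settings only. Col23a1 still had the most, 4, in gene bodies alone and with a 10 kb flank, beside 3 at Col5a1 in each. With 50% of each peak in common it had 4, level with Col24a1 and Comp. With a −log10 q of at least 2 it had 2 shared regions beside 4 at Col24a1 and 4 at Comp, with lists of equal length 3 beside 4 at Col24a1, and with a fold of at least 5 it had 0 beside 2 at Col24a1. Col25a1 had 5 and 14 peaks and 2 shared regions deep in the gene, of which one (chr3:130326812-130327028), 146 kb from the start, had folds of 6.27 and 7.14 and the other 7.57 and 5.16. Col13a1 had 4 and 12 peaks, and both of its shared regions lay beyond the gene in a non-coding gene, Gm51765, with folds of 6.02 and 5.92 in the stronger (chr10:61815710-61815934) and 4.30 and 6.17 in the other.

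Of the 4 matrix genes of mesenchyme, Fn1, Fbn1 and Fbn2 had a shared region inside the gene and Vcan had none in its window, beside 1.70 genes by length class for the gene body and 2.45 for the window. Fn1 encodes fibronectin, on which migrating cells travel, and had 3 and 8 peaks. Of its 2 shared regions the one with the higher lower fold lay 4.78 kb outside the gene (chr1:71580555-71580690) at 5.90 and 3.96, and the one inside the gene had 4.29 and 3.81. Fbn1 and Fbn2 encode fibrillins, which build microfibrils. Fbn1 had 7 and 8 peaks and 1 shared region (chr2:125441181-125441400) at 5.42 and 6.41, and Fbn2 had 4 and 10 peaks and 1 shared region, 61.2 kb from the nearer end of the gene, at 4.33 from 5 fragments and 6.66 from 13. Vcan had 0 peaks in replicate 1 and 1 in replicate 2, at a fold of 3.81 from 7 fragments.

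**Figure D4:**
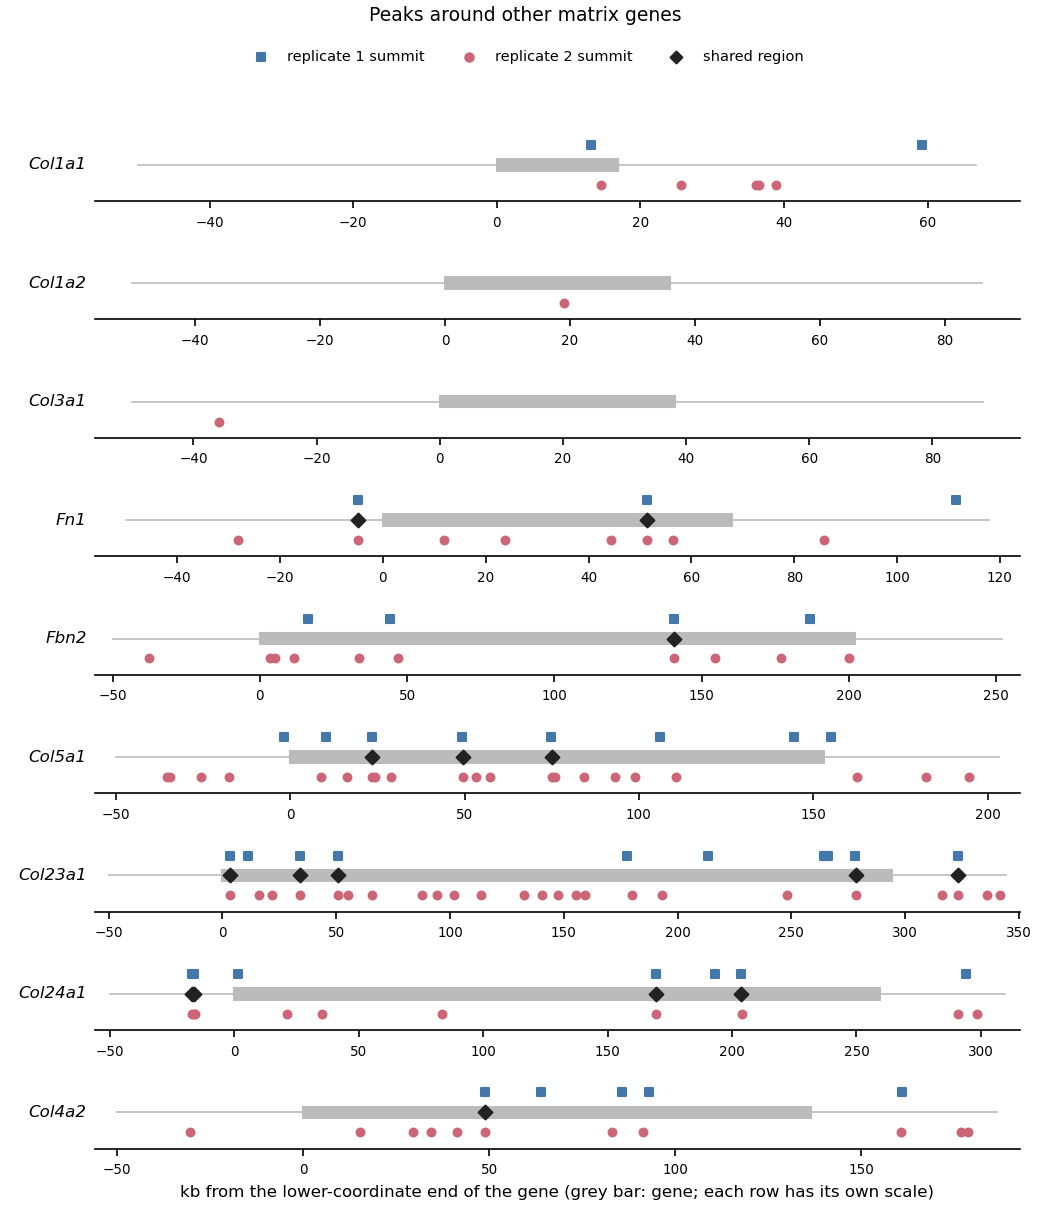
Peaks around 9 further matrix genes, 1 row per gene, in kb from the lower-coordinate end of the gene (x axis, each row with its own scale). The gray bar is the gene and the thin line its window, blue squares above it are replicate 1 summits, red circles below it replicate 2 summits, and black diamonds on it shared regions. Col1a1, Col1a2 and Col3a1 carry no diamond, while Col23a1 carries 5 and Col24a1 carries 4, a pair of which overlap upstream of the gene.

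The width of the flank decided many of these calls. The regions of Comp at 48.6 kb, which has others nearer, and of Col4a1 at 48.7 kb were just inside the 50 kb limit, and those of Matn1 at 53.2 kb and Vcan at 67.0 kb were the nearest outside it. With a 10 kb flank, 16 of the 42 genes had a shared region in place of 30, which is 38.1% beside 38.5% by length class, so at that width the matrix genes held no more than genes of their length. With a 100 kb flank, 34 of the 42 had one, which is 81.0% beside 69.0% by length class.

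By fold, the shared regions of matrix genes stood slightly below or level with shared regions elsewhere. The median fold over the 53 regions was 4.93 in replicate 1 and 5.15 in replicate 2, beside 5.05 and 5.12 over all 10921. The median lower fold was 4.28, beside 4.51 over all. A lower fold of at least 5 was reached by 14 of the 53 (26.4%), beside 35.1% of all shared regions. The highest lower fold, 7.01 at Col24a1, stood at the 93.5th percentile of all shared regions. The fold was higher in replicate 1 at 32 regions and in replicate 2 at 21, which is 60.4% in replicate 1 beside 50.4% over all. In 48 of the 53 (90.6%, beside 82.1% over all) the summits were within 150 bp of each other. The rank correlation of the replicate folds across regions was 0.135 over the 53 and 0.440 over all, given as a description, since the regions come from the same 2 libraries and rest on few fragments.

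**Figure D5:**
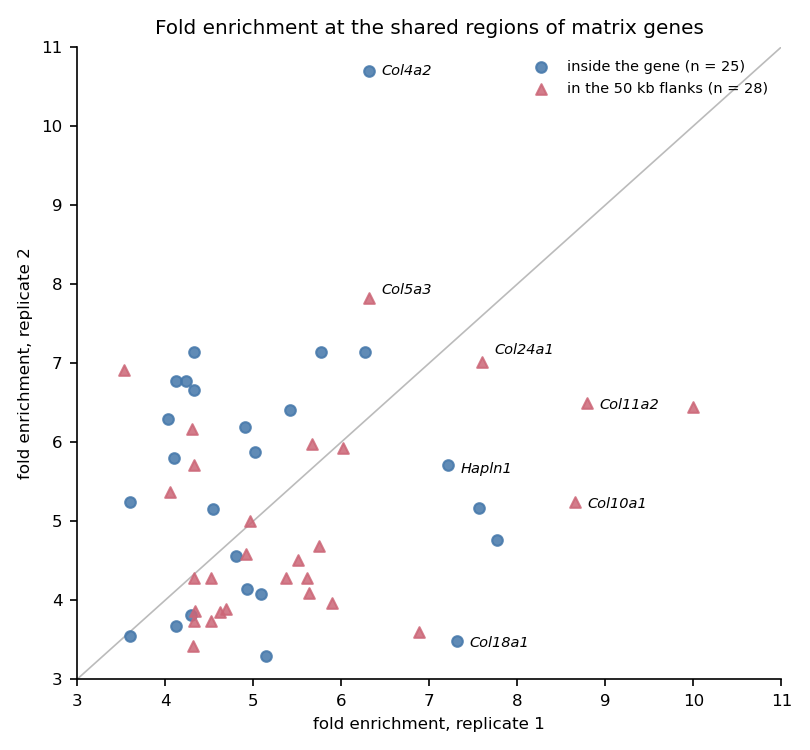
Fold enrichment in replicate 1 (x axis) against replicate 2 (y axis) for the 53 shared regions in the windows of matrix genes. Blue circles are the 25 inside a matrix gene, red triangles the 28 in the flanks, and the gray line marks equal folds. Most regions lie between 3 and 7 on both axes, with Col4a2 at 10.7 in replicate 2 and a Col24a1 region at 10 in replicate 1 as the extremes.

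Other genes of the matrix, from 6 lists of collagens, modifying enzymes, proteoglycans, elastic fiber genes, proteases and receptors, ranged from below to above their length classes. Of 102 such genes, 60 had a shared region (58.8%, beside 50.8% by length class). Among the other collagens the count was 6 of 11 (54.5%, beside 62.0%), among collagen modifying and processing enzymes 17 of 29 (58.6%, beside 50.8%), and among proteases and inhibitors 7 of 14 (beside 50.2% by length class). It was 11 of 21 for other proteoglycans and cartilage glycoproteins (52.4%, beside 44.7%) and 10 of 16 for elastic fiber and microfibril genes (62.5%, beside 49.1%). The receptors for collagen and fibronectin had the highest share, 9 of 11 (81.8%, beside 54.8%). The counts are small and were not tested. Col26a1, a collagen with short helical parts, had 10 and 15 peaks and 6 shared regions, and Itga2, the alpha chain of a collagen-binding integrin, had 7 and 10 peaks and 5, the highest numbers of shared regions in these lists.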

How the data were processed

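CUT&Tag peaks from 2 libraries of 1 group were analysed, with replicates numbered in the order of their records. Per the labels, the authors trimmed reads with Trim Galore 0.4.5, aligned them with Bowtie 1.1.2 to mm10 (GRCm38) and called peaks with MACS2 2.2.7, on each library separately. The methods of the study name another aligner, and the labels describe sonication where the methods describe tagging by transposase, so which holds is not settled here. The deposited score is the whole part of 10 times the −log10 q. The deposited fold enrichment is a ratio of summit to nearby background within a library. The deposited −log10 p and −log10 q come from the peak caller, and no listed q exceeds 0.1.

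Peaks were assigned to the RefSeq extents of GRCm38.p6 with a flank of 50 kb, on chromosomes 1 to 19, X and Y. Shared regions needed 1 bp in common. Fragments at a summit were inferred by solving the fold and the −log10 p for a whole number, under a Poisson tail and with 1 added to fragments and background, with a tolerance of 0.001. A whole number was found for 100% of peaks, and the steps were tested on simulated data. Length matching used the shares in 10 length classes, members included, averaged over the 42 genes. The list of genes, the other matrix lists and the motifs were chosen with earlier results of these data known, so no p-value is given. The genes described with values were those with a shared region inside the gene, the 12 with the most shared regions, 8 cartilage genes and 5 mesenchyme genes fixed by name, with the 10 regions of highest lower fold. Folds and positions for Matn3, Col9a2, Col5a2, Col6a1, Col7a1, Col11a1, Col16a1, Col27a1 and Vcan fall outside that rule and were added after their values were seen. Alternatives were another q, fold, overlap, flank and list length, and each replicate alone. No genome sequence was used here, so exons, introns and motifs within peaks were not analysed here. Tables were made with pandas 2.3.3 and numpy 2.4.6 in Python 3.11.15, Poisson tails with scipy 1.17.1, Wilson intervals with statsmodels 0.14.6, and figures with matplotlib 3.10.9.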

Additional observations from a re-analysis of the deposited data

How the results depend on the processing

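No paired analysis was possible because the 2 libraries form 1 group. Of 42 matrix genes, 30 had a shared region, and the count was 14 with a fold of at least 5, 15 in gene bodies, 16 with a 10 kb flank and 22 to 34 under the other settings. A single replicate gave 36 to 42. The 53 shared regions became 14, 25 and 29 under the first 3 of these settings, and 136 to 334 peaks in a single replicate. The share of all coding genes, 44.7%, became 35.4% with a −log10 q of at least 2, 18.4% with a fold of at least 5, 30.5% with 50% of each peak in common, 14.6% in gene bodies, 21.7% and 60.2% with flanks of 10 and 100 kb, 36.4% with lists of equal length and 72.4% to 86.2% in a single replicate. The length-class average, 56.7%, became 28.1% with a fold of at least 5, 41.8% with 50% in common, 33.3% in gene bodies, 38.5% with a 10 kb flank, and 82.6% to 93.1% in a single replicate. The share inside genes was 45.2% to 52.8% where it was recomputed. Stricter peaks, narrower windows and the need for both replicates lower these counts by construction. With 50 length classes, an alternative chosen after seeing the data like the one without regions inside other coding genes (26 genes), the length-class average was 55.7%. For the 27 genes described with values, 135 of 243 counts did not move and 108 did. Low fragment numbers limit what could be listed: a peak in the windows rested on 4 to 15 fragments in replicate 1 and 6 to 32 in replicate 2.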
